A study of Mus musculus with 5 samples.

Results

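CpG methylation was followed at 10 genes whose proteins build, pair and recombine chromosomes in meiosis: Sycp1, Sycp2, Sycp3, Syce1, Hormad1, Hormad2, Stag3, Smc1b, Dmc1 and Mei4. The genes share a function in meiosis and were chosen with earlier results of these data known. Each was tied to the longest CpG island (CGI, a stretch dense in the dinucleotide CG) within 1000 bp of either end of the gene. Where there was no island, the longest flanking shore was used. A region had to be listed in all 5 libraries. Of the 10 genes, 6 had such a region, a CGI in each case, out of 12081 of 21900 protein-coding genes with any region. Syce1, Hormad2, Stag3 and Dmc1 had none by this rule and are described only where other values exist.

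In meiosis each chromosome is organised along a protein axis, homologous axes are joined by the synaptonemal complex, and programmed DNA breaks are repaired between homologues. Sycp2 and Sycp3 are axial elements, Hormad1 and Hormad2 are HORMA-domain proteins of the axis, Smc1b and Stag3 are meiotic cohesin subunits, Sycp1 is the transverse filament and Syce1 a central element of the synaptonemal complex, Mei4 is needed to form the breaks, and Dmc1 is the recombinase that repairs them. Several genes of this kind carry promoter CGIs that are methylated in somatic cells and lose methylation in primordial germ cells, before they are switched on as the cells enter meiosis.

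Levels were measured by reduced representation bisulfite sequencing, which reads cytosine methylation in CpG-rich fragments cut by the enzyme MspI, in 5 mouse libraries, 1 per group, all of strain C57BL6. Female ESC were an embryonic stem cell line with 2 parental genomes, and pESC a parthenogenetic line, which carries maternal chromosomes only. Both were grown on feeder cells in medium with serum and LIF, and were moved to a 2i medium with a reduced dose of the MEK inhibitor PD0325901 before induction. The labels do not say from which medium the stem cell DNA was taken or whether feeder cells had been removed. ESC-PGCLC and pESC-PGCLC were primordial germ cell-like cells made from these lines by 46 h in activin A and bFGF and then 4 days in floating culture with BMP4, LIF, SCF and EGF, and were sorted for CD61 together with SSEA1. PGC were cells of the E12.5 gonad bound by SSEA1 beads, with sex and number of embryos not given. Each stem cell type was represented by 1 line, so line and genotype cannot be told apart, and with 1 library per group no difference below has a replicate error or a test.

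The deposited values are levels with no read numbers, so the depth is unknown and no interval can be given. Methylation assays hold no marker expression, and the cell type labels were therefore checked only through imprinting. Of a list of genes imprinted by maternal methylation, all 10 measured had higher levels in the parthenogenetic line (list median 48.6%) than in the biparental line (9.20%), the direction the label requires of chromosomes of maternal origin. The list median was 40.6% in PGC, 7.45% in ESC-PGCLC and 48.2% in pESC-PGCLC. Maternal imprints are methylated on 1 parental copy in biparental cells and are known to be erased in germ cells of the gonad around this stage. The low values in female ESC and ESC-PGCLC and the high value in PGC, where all 10 genes were above female ESC and 8 of them by at least 10 points, thus do not match what the labels would lead one to expect. In pESC, with maternal chromosomes only, both copies would carry the mark. Its levels ran from 6.15% at Mcts2 to 77.8% at Peg13, so pESC met the label in direction but not in level. The cause of these mismatches was not tested, and it touches every comparison below. Library means across 14214 CGIs lay between 3.41% (PGC) and 3.91% (female ESC). Most CGIs are unmethylated, and 785 had a mean of at least 10% over the 5 libraries. In a bulk library, a level between 0 and 100% cannot tell a mixture of cells from partial methylation within cells. These 785 CGIs serve below as the background for methylated members.

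Promoter sequence is shown first for the 4 genes that span the range of levels: Sycp3 with the most methylated island, Sycp1 with the widest gap between the germ cell-like libraries, Hormad1 with the largest gap between female ESC and the rest, and Mei4 with an unmethylated island. Each is the 250 bases before the RefSeq start site (GRCm38.p6, the assembly that matches mm10), 5′ to 3′ on the gene's strand, with every CpG in capitals. They lie at chr10:88459337-88459586 (plus strand), chr3:102936101-102936350 (minus strand), chr3:95559427-95559676 (plus strand) and chr9:81863420-81863669 (plus strand).
Sycp3: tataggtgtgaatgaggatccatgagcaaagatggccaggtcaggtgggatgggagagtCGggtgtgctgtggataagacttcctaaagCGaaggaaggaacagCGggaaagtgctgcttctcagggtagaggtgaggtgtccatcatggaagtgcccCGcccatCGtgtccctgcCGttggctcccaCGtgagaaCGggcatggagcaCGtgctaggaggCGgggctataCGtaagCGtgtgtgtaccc
Sycp1: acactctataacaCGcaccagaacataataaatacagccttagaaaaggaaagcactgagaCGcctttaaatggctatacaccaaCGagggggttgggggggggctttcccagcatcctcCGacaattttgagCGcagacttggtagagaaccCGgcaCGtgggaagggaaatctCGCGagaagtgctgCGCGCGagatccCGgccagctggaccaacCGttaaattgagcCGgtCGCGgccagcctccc
Hormad1: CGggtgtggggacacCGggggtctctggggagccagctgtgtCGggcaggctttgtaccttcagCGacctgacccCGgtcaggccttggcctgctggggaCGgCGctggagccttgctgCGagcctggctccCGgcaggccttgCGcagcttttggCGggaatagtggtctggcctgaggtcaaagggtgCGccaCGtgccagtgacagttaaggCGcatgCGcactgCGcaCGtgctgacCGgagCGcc
Mei4: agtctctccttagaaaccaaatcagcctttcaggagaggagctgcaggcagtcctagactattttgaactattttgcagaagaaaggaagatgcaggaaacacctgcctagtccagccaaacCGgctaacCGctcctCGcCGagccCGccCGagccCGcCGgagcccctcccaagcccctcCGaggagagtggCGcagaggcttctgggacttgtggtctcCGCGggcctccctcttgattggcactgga
The letters caCGtg occur 2 times in the Sycp3 stretch, 2 times in that of Hormad1 and 1 time in that of Sycp1, and are missing from that of Mei4. They are also missing from the matching 250 bases of Sycp2 and Smc1b, whose islands averaged 17.18% and 13.45%. In those of Stag3 they occur 1 time, and the island over its start site averaged 1.36%. Whether the letters go with the level was not tested.

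All 10 genes had a promoter in the RefSeq table, a window of 300 bases that also takes in the first 50 after the start. These windows held between 10 (Sycp2) and 30 (Stag3) CpGs, against a median of 7 and quartiles of 3 and 21 over 27025 promoters of the table. CCGG, the cut site of MspI, was present in 8 of the 10 windows, against 52.6% of all promoters and 88.3% of the 11876 promoters with at least 10 CpGs, the fewest in any of the 10 windows. Syce1, with no listed region, and Stag3 were the genes without it. CACGTG, the palindromic E-box bound by MAX and its partner MGA, was present in 4 windows (Sycp1, Sycp3, Hormad1 and Stag3), against 7.24% of all promoters and 11.1% of those with at least 10 CpGs. TCCCGC or its reverse complement, the core bound by E2F factors, was present in 6 windows (Sycp1, Sycp3, Hormad1, Stag3, Smc1b and Dmc1), against 20.0% of all promoters and 40.3% of those with at least 10 CpGs. MGA and E2F6 belong to a Polycomb complex known to silence germline genes. The matches describe letters in a window, not binding.

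Among the axis genes, Sycp3 (Entrez gene 20962) has its island at chromosome 10, 88459494 to 88459991 (mm10), from 93 bases before to 404 bases after the start site. The island was at 54.4% in female ESC, 49.0% in pESC, 41.2% in PGC, 48.02% in ESC-PGCLC and 45.4% in pESC-PGCLC. It was the most methylated of the 6 islands in every library, with its top value in female ESC and its lowest value in PGC, at 75.8% of the former.

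Sycp2 (gene 320558) has its island at chromosome 2, 178407225 to 178407650, which ends 8 bases downstream of the listed start site on the minus strand and so lies in the transcribed part of the gene. Levels were 19.4% in female ESC, 15.7% in pESC, 17.1% in PGC, 19.3% in ESC-PGCLC and 14.3% in pESC-PGCLC. Female ESC and ESC-PGCLC were nearly equal, the parthenogenetic libraries were the lowest, and the spread over the 5 libraries was 5.15 points.

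Hormad1 (gene 67981) has the shortest island, 203 bp at chromosome 3, 95559526 to 95559728, across the start site. It was at 23.6% in female ESC, 14.7% in pESC, 13.8% in PGC, 15.7% in ESC-PGCLC and 10.1% in pESC-PGCLC. Here female ESC stood above the other 4 libraries, and pESC-PGCLC was the lowest. The range of 13.5 points was the largest of the 6 islands, and PGC stood at 58.3% of the female ESC level, the lowest share of the 6.

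Smc1b (gene 140557) has an island at chromosome 15, 85131665 to 85132180, that also covers the start of the neighbouring gene Ribc2, which encodes a ciliary protein, so its level belongs to both genes. Levels were 15.0% in female ESC, 13.4% in pESC, 12.99% in PGC, 14.3% in ESC-PGCLC and 11.6% in pESC-PGCLC. As at Sycp2, female ESC and ESC-PGCLC were the highest and pESC-PGCLC the lowest, within a range of 3.31 points.

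Sycp1 (gene 20957), the transverse filament gene, has the longest island, 857 bp at chromosome 3, 102935374 to 102936230, across its start site. Levels were 31.9% in female ESC, 28.3% in pESC, 23.2% in PGC, 32.5% in ESC-PGCLC and 21.8% in pESC-PGCLC. The germ cell-like cells of the female ESC line were thus level with their parent line (101.9% of it), while those of the parthenogenetic line were at 77.3% of theirs and close to PGC.

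Mei4 (gene 75033), of the break-forming machinery, was the exception among the measured genes. Its island at chromosome 9, 81863541 to 81864005, was at 2.19% in female ESC, 2.28% in pESC, 2.50% in PGC, 2.14% in ESC-PGCLC and 2.55% in pESC-PGCLC. These values span 0.409 points, and in CHG and CHH contexts, where cytosines are rarely methylated, the 6 islands ranged from 0.287% to 1.43% and from 0.346% to 1.11%.

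**Figure D1:**
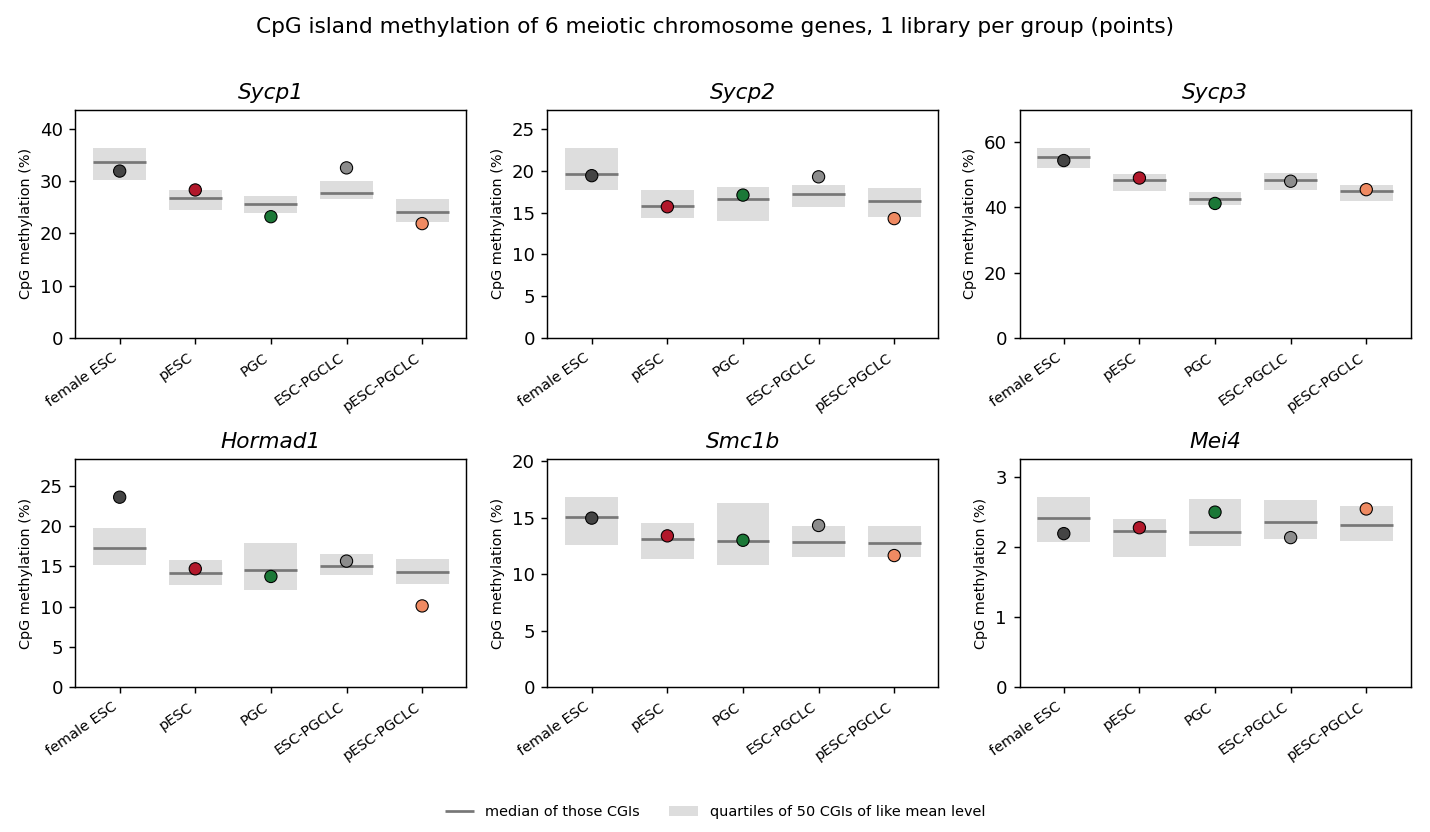
CpG island methylation in percent (vertical axis, from 0 and scaled per gene) of 6 genes in the 5 libraries (horizontal axis, 1 point per library), with the quartiles (grey boxes) and median (grey lines) of the 50 CGIs nearest in mean level. Of 30 points, 9 lie outside the boxes, among them Hormad1 in female ESC (23.6%) and Sycp1 in ESC-PGCLC (32.5%) above, and Hormad1 in pESC-PGCLC (10.1%) below. The boxes by construction leave as many of the like CGIs outside as inside.

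Among the 5 methylated islands, female ESC was the highest library at 4 (Sycp2, Sycp3, Hormad1 and Smc1b), as at 69.0% of the 785 methylated CGIs, and ESC-PGCLC was the highest at Sycp1. The lowest library was pESC-PGCLC at 4 (Sycp1, Sycp2, Hormad1 and Smc1b), where 22.9% of the methylated CGIs had their lowest level, and PGC at Sycp3, where 45.5% had theirs. The median over the 6 islands was 21.5% in female ESC, 15.2% in pESC, 15.4% in PGC, 17.5% in ESC-PGCLC and 12.97% in pESC-PGCLC, and that of the 785 methylated CGIs 33.7%, 28.2%, 26.9%, 28.2% and 26.1% in the same order.

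Of the 4 genes with no region by the rule, Stag3 has a RefSeq start site at chromosome 5, 138280509, inside its annotated span and thus farther than 1000 bp from either end. The CGI over this site, 138279870 to 138280582, was at 1.09% in female ESC, 1.59% in pESC, 0.995% in PGC, 1.71% in ESC-PGCLC and 1.39% in pESC-PGCLC. It also overlaps one end of Gpc2, a glypican gene. Its flanking shores were more methylated, the one downstream of the site at 35.1% in female ESC, 29.4% in pESC, 20.7% in PGC, 28.5% in ESC-PGCLC and 20.6% in pESC-PGCLC. An unmethylated island was therefore listed at 2 of the 7 genes once Stag3 was read at this site, a reading chosen outside the rule.

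Shores, the 2 kb flanks of an island, were listed for 5 of the 6 genes, and most were more methylated than the island beside them. The Hormad1 shore upstream of the island was at 49.4% in female ESC, 31.9% in pESC, 25.9% in PGC, 38.3% in ESC-PGCLC and 29.7% in pESC-PGCLC, so that its gap between female ESC and PGC repeated that of the island at a larger size. Upstream of Sycp1 the shore was at 44.99%, 42.2%, 33.0%, 38.5% and 31.9% in the same order of libraries. Unlike the island, the Sycp1 shore was lower in ESC-PGCLC than in female ESC.

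The Sycp2 shore, inside the gene and downstream of the island, was at 41.5% in female ESC, 33.9% in pESC, 31.8% in PGC, 52.3% in ESC-PGCLC and 36.9% in pESC-PGCLC, with ESC-PGCLC the highest. The Sycp3 shore, in the gene body, was less methylated than its island, at 31.0%, 27.7%, 25.3%, 33.6% and 28.5%, again with ESC-PGCLC highest. Flanks of the Smc1b island differed from each other. The shore inside Smc1b was at 80.0% in female ESC, 46.3% in pESC, 29.8% in PGC, 51.9% in ESC-PGCLC and 45.8% in pESC-PGCLC, and the shore on the Ribc2 side was between 1.89% (PGC) and 5.01% (ESC-PGCLC). In female ESC, CHG and CHH methylation of the shore inside Smc1b were both listed at exactly 0, and how many reads lie behind its 80.0% is not known. PGC was the lowest library at 5 of the 6 shores, and pESC-PGCLC at that of Sycp1. Among 5353 shores with a mean of at least 10%, PGC was lowest at 56.6% and pESC-PGCLC at 19.2%. The shore on the Ribc2 side, 1 of those with PGC lowest, had a mean of 3.64% and lies outside that class.

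**Figure D2:**
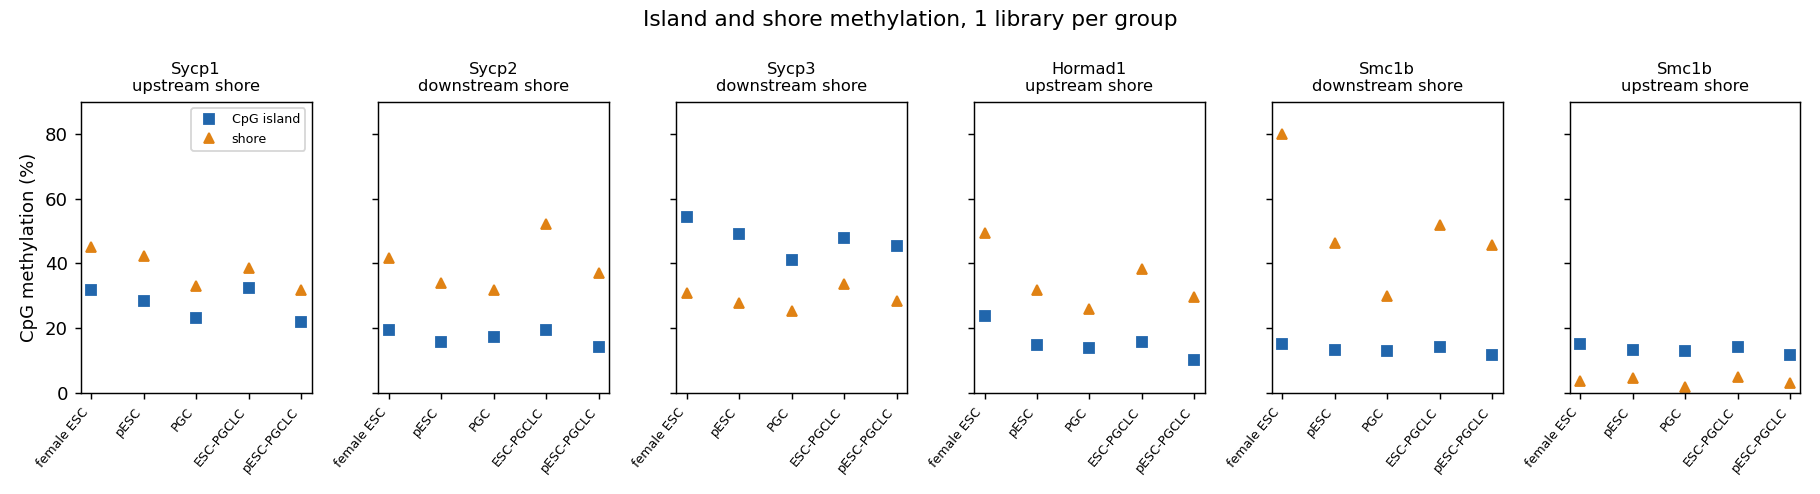
Methylation in percent (vertical axis, from 0) of the island (blue squares) and of each listed shore (orange triangles) in the 5 libraries (horizontal axis); the Smc1b island is drawn beside both of its shores. Shores lie above the islands at Sycp1, Sycp2, Hormad1 and inside Smc1b, and below them at Sycp3 and on the Ribc2 side of Smc1b.

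Between the stem cell lines, the parthenogenetic one had the lower levels. All 5 methylated islands were lower in pESC, where 85.1% of the 785 methylated CGIs were lower. Differences were -8.91 points at Hormad1, -5.37 at Sycp3, -3.72 at Sycp2, -3.61 at Sycp1 and -1.57 at Smc1b, and Mei4 differed by 0.0841 points. The median was -3.67 points over the 6 genes, against -0.0785 over all CGIs, and -3.72 over the 5 methylated islands, against -4.75 over the methylated CGIs. None differed by 10 points, as 1.09% of all CGIs and 18.3% of the methylated CGIs did. Taking out the overall shift of the CGI class as 1 factor brought the median of the 6 to -0.604 points.

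PGC was then set against the stem cell lines. Against female ESC it was lower at all 5 methylated islands (81.1% of the methylated CGIs were lower), by -13.2 points at Sycp3, -9.85 at Hormad1, -8.71 at Sycp1, -2.33 at Sycp2 and -1.96 at Smc1b. Only Sycp3 passed 10 points in this comparison, which 2.51% of all CGIs and 43.1% of the methylated CGIs passed. The median over the 5 was -8.71 points, beside -7.82 over the methylated CGIs. Over all 6 genes it was -5.52, and -2.35 with the class shift taken out, when Sycp2 turned to 0.152 points. Against pESC, PGC was lower at 4 of the 5 (68.4% of the methylated CGIs were lower), with -7.79 points at Sycp3 and -5.10 at Sycp1, and 1.39 points higher at Sycp2. The median was -0.946 points over the 5, beside -2.50 over the methylated CGIs; over all 6 it was -0.664, and -0.0850 with the class shift taken out, when Smc1b turned from -0.381 to 0.171 points. None of the 6 differed from pESC by 10 points (1.07% of all CGIs, 17.2% of the methylated ones). These comparisons share the PGC library.

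Induction of germ cell-like cells was read in each line against its parent. From female ESC to ESC-PGCLC, Hormad1 differed by -7.95 points and Sycp3 by -6.35, while Smc1b (-0.654), Sycp2 (-0.140), Mei4 (-0.0569) and Sycp1 (0.609) differed by under 1 point. Of the 5 methylated islands 4 were lower, as were 82.9% of the methylated CGIs, whose median difference was -4.36 points against -0.654 for the 5 islands and -0.397 for all 6 genes. None of the 6 genes reached 10 points, which 1.01% of all CGIs and 17.2% of the methylated CGIs did. With the class shift taken out the median of the 6 turned to 0.165 points, and Sycp2 and Smc1b turned to 1.04 and 0.254.

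From pESC to pESC-PGCLC all 5 methylated islands were lower, beside 68.2% of the methylated CGIs. Sycp1 differed by -6.42 points, Hormad1 by -4.61, Sycp3 by -3.56, Smc1b by -1.73 and Sycp2 by -1.42. The median was -3.56 points over the 5 and -2.05 over the methylated CGIs (-2.65 over all 6 genes), and none of the genes reached 10 points (0.408% of all CGIs, 6.62% of the methylated CGIs). Sycp1 is the gene at which the lines parted most, with a change of 0.609 points in the female ESC line and -6.42 in the parthenogenetic line.

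The germ cell-like libraries were then set beside PGC and beside each other. ESC-PGCLC was above PGC at all 5 methylated islands. Most methylated CGIs went the same way, with 29.9% of them lower in ESC-PGCLC. The gap was 9.32 points at Sycp1, 6.81 at Sycp3, 2.19 at Sycp2, 1.91 at Hormad1 and 1.30 at Smc1b, and Mei4 was -0.364 points apart; none reached 10 points (1.1% of all CGIs, 18.6% of the methylated CGIs). The median over the 5 was 2.19 points, beside 2.85 over the methylated CGIs. Over all 6 genes it was 2.05, or 0.865 with the class shift taken out.

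pESC-PGCLC was below PGC at 4 of the 5 methylated islands (42.2% of the methylated CGIs were lower), by -3.66 points at Hormad1, -2.82 at Sycp2, -1.35 at Smc1b and -1.32 at Sycp1, and above it by 4.23 at Sycp3. No gene was 10 points apart (0.373% of all CGIs, 5.61% of the methylated CGIs). The median was -1.35 points over the 5, beside 0.754 over the methylated CGIs. Over all 6 genes it was -1.34, or -2.30 with the class shift taken out. Shores were listed for 5 of these genes, not for Mei4, and had a median of 3.84, in the opposite direction. Smc1b entered there as the mean of its unlike shores.

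Between the germ cell-like libraries, pESC-PGCLC was lower at all 5 methylated islands, beside 69.4% of the methylated CGIs. Sycp1 stood -10.6 points apart, the only gene past 10 points, which 0.549% of all CGIs and 9.55% of the methylated CGIs were. Hormad1 followed with -5.57, Sycp2 with -5.01, Smc1b with -2.65 and Sycp3 with -2.58 points, and Mei4 was 0.409 higher. The median was -5.01 points over the 5, against -1.96 over the methylated CGIs, and -3.83 over all 6 genes. Like the stem cell lines, with which this comparison shares no library, the parthenogenetic side was lower at each of the 5 methylated islands; the germ cell-like cells descend from those lines.

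Since methylated CGIs differ more than unmethylated ones, each gene was set beside the 50 CGIs nearest to it in mean level over the 5 libraries. Over 6 genes and 8 comparisons, 16 of 48 differences lay outside the quartiles of those CGIs, 12 below and 4 above; quartiles by construction leave as many of the like CGIs outside as inside. Hormad1 lay below the lower quartile in 6 of the 8 comparisons. Each of these held female ESC or pESC-PGCLC, so they are not separate observations. The Hormad1 level of 10.1% in pESC-PGCLC stood below a lower quartile of 12.8%. In PGC minus female ESC its -9.85 points stood beside a median of -2.68 and quartiles of -7.57 and 2.16, and its level of 23.6% in female ESC beside an upper quartile of 19.8%.

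Over comparisons that also share libraries, Sycp1 lay outside the quartiles in 6, above them in 3 and below them in 3. Its level of 32.5% in ESC-PGCLC stood above the upper quartile of 29.9%, and its 23.2% in PGC and 21.8% in pESC-PGCLC below lower quartiles of 23.9% and 22.2%. Sycp3 stayed between the quartiles in all 8 comparisons: its -13.2 points in PGC minus female ESC stood beside a median of -13.6. The comparison with the most genes outside was pESC-PGCLC minus ESC-PGCLC, with Sycp1, Sycp2, Hormad1 and Smc1b below and Mei4 above. Mei4 was barely past, with 0.409 points beside an upper quartile of 0.397, and lay between the quartiles when 200 like CGIs were used. At Hormad1 the -5.57 points stood beside a median of -0.633 and a lower quartile of -2.56, and at Sycp2 the -5.01 points beside -0.965 and -2.91. These positions are descriptions of 5 libraries.

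**Figure D3:**
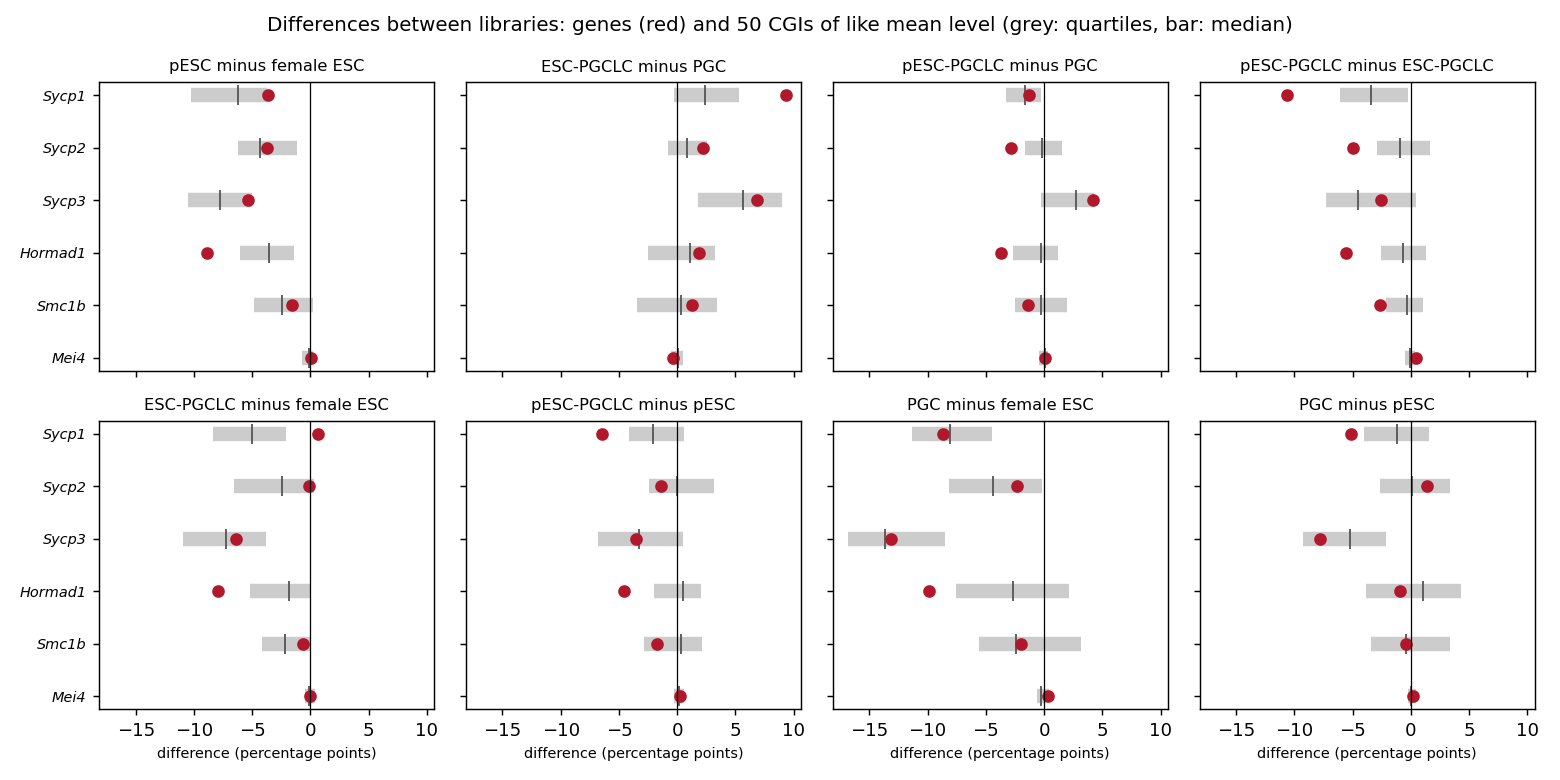
Differences in percentage points (horizontal axis) between pairs of libraries for 6 genes (red points), with the quartiles (grey bars) and median (tick) of the 50 CGIs nearest in mean level, 1 panel per comparison. Sycp3 lies on its grey bar in every panel, while Sycp1 lies at 9.32 in ESC-PGCLC minus PGC and at -10.6 in pESC-PGCLC minus ESC-PGCLC, clear of its bars.

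Genes whose islands were nearest to the members over the 5 libraries, by mean absolute difference, came from varied families. Nearest to Sycp1 was Mael, a transposon-silencing gene of the germ line, at a mean absolute difference of 1.81 points, with 31.0%, 22.5%, 22.9%, 30.5% and 21.8% in the library order used above; Dcdc2c followed at 2.04. D1Pas1, a testis DEAD-box helicase gene, was nearest to Sycp2 (1.38 points), followed by Bhlha15 (1.64). Sycp3 was closest to Vmn2r29, a vomeronasal receptor gene (1.70), and Lhcgr, the luteinizing hormone receptor gene (1.72). Prom2 (2.01) and Zfp872 (2.09) were the nearest to Hormad1, and Speg (0.914) and Krt7 (0.949), a keratin gene, to Smc1b.

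Other genes of meiotic recombination and synapsis were mostly unmethylated. Of 41 such genes in the reference table, 28 had a region, 23 of them a CGI, and 6 had a mean of at least 10%, compared with 5 of the 6 genes described above. Over all regions, 785 of 14214 CGIs and 5353 of 16696 shores had such a mean. Both lists were chosen with earlier results of these data known, so their counts describe the lists only. The list median was between 1.55% (PGC) and 1.99% (pESC-PGCLC). The most methylated were the shore of Fkbp6, an immunophilin of meiotic chromosomes (51.9% in female ESC, 54.0% in pESC, 41.7% in PGC, 49.0% in ESC-PGCLC, 41.3% in pESC-PGCLC), and the shore of Stra8, which drives entry into meiosis (49.9%, 42.2%, 41.4%, 52.4% and 39.2%). Next came the island of Syce3, a central element gene (47.9%, 33.0%, 33.7%, 35.9% and 38.7%), and the shore of Ankrd31, a regulator of break sites (36.9%, 29.96%, 26.8%, 33.3% and 24.6%). Among the 6 with a mean of at least 10%, pESC-PGCLC was the lowest library at 3 (Fkbp6, Stra8 and Ankrd31, all shores), and pESC, PGC and ESC-PGCLC at 1 each. PGC was lower than female ESC at 20 of the 28 genes and at all 6 with a mean of at least 10%, where 81.1% of the methylated CGIs were lower. A difference of 10 points was reached by 3 genes of the list, by 2.51% of all CGIs and by 43.1% of the methylated CGIs. These shares were not taken for shores, the class of 3 of the 6 regions.

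Mitotic counterparts of the meiotic proteins had low levels, as most CGIs did. Of 8 such genes, 7 had a region and none had a mean of 10%, which 785 of the 14214 CGIs reached. Low means were also found at Mei4 (2.33%) and at the island over the Stag3 start site (1.36%). Smc1a, the mitotic relative of Smc1b, was between 0.463% and 1.07%, and Smc3 between 1.10% and 1.38%. Stag2, a relative of Stag3, reached 2.65% in PGC. Rad21 had the highest mean, on a shore, at 3.39% in female ESC, 1.59% in pESC, 2.20% in PGC, 1.12% in ESC-PGCLC and 8.33% in pESC-PGCLC.

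Genes of the piRNA pathway and germ granules, which guard the germ line against transposons, were measured on islands and shores in nearly equal number. Of 19 genes, 11 had a region. A mean of at least 10% was found at 2 of 6 islands (Dazl and Mael) and 4 of 5 shores, against 3 of 23 islands and 3 of 5 shores of the other meiotic genes. Over all regions, 785 of 14214 CGIs and 5353 of 16696 shores reached it, so islands and shores have unlike backgrounds. Over the 6 methylated regions the median difference of PGC minus female ESC was -12.7 points, against -8.71 over the 5 methylated meiotic islands, and that of pESC-PGCLC minus ESC-PGCLC was -9.23 against -5.01. The regions are unlike, since 4 of the 6 are shores. Shores listed for 5 of the 6 meiotic chromosome genes had medians of -12.0 and -6.64 in these comparisons. Most methylated were the shores of Tdrd1, Mov10l1 and Tdrd12, which encode piRNA factors, at 65.4%, 67.9% and 68.1% in female ESC and 49.2%, 49.1% and 51.8% in PGC, followed by the Mael island.

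**Figure D4:**
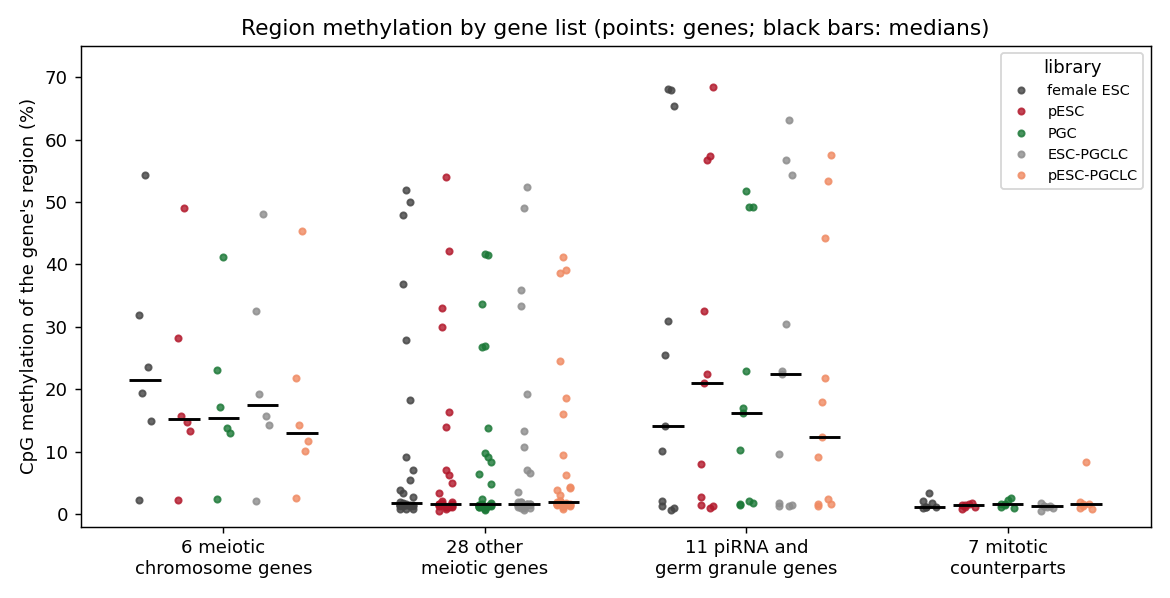
Region methylation in percent (vertical axis) of single genes (points) and list medians (black bars) in the 5 libraries (colours) for 4 gene lists. The 7 mitotic counterparts lie below 10% in every library, and the 28 other meiotic genes have medians from 1.55% to 1.99%, below those of the 6 meiotic chromosome genes (12.97% to 21.5%). The lists were chosen with earlier results of these data known.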

How the data were processed

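Reduced representation bisulfite libraries of 5 samples were compared, 1 per group. Each deposited value is the methylated fraction of a region in CG, CHG or CHH context, per the file headers, and is printed as percent. Per the submitters' processing notes, the authors used Bismark 0.16.3 and Bowtie2 with the build mm10. Region definitions, coverage filters and read depth were not given in the sources used here.

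Genes were tied to regions through RefSeq gene coordinates of GRCm38.p6, within 1000 bp of either gene end. Promoter windows and sequences are RefSeq's. Regions were kept when all 5 libraries listed them. Differences are between 2 libraries, in percentage points, in 8 comparisons, with no test; 10 points served as a size mark, with 25 and 5 as alternatives.

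The genes, lists and alternatives were chosen with earlier results of these data known. Named were all 10 genes, up to 4 genes of each other list by mean level, and the 2 genes nearest to each member with a mean of at least 10%; Smc1a, Smc3 and Dazl were added after values were seen. Further alternatives were windows of 500 and 2000 bp, the mean over all CGIs, the region nearest the start site, CHH subtraction, a class factor, exclusion of values of 0 or 1, and 200 like CGIs; shores were added after seeing the data. Analyses used Python 3.11.15 and pandas 2.3.3.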

Additional observations from a re-analysis of the deposited data

Results flagged for a closer look

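The induction changes of the lines pointed in opposite directions at 2 of the 6 islands, with 1 library on each side, and the difference was not tested. At Sycp1 the level changed by 0.609 points from female ESC to ESC-PGCLC and by -6.42 points from pESC to pESC-PGCLC, a difference of -7.03 points. At Mei4 the changes were -0.0569 and 0.268 points, a difference of 0.325 points at an island of about 2%. Among the 785 methylated CGIs, 26.8% had opposite directions. Of the 2 genes only Sycp1 belongs to that class, and no share was taken for unmethylated CGIs.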

How the results depend on the processing

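Windows of 500 and 2000 bp, the mean over all CGIs, CGIs only and exclusion of values of 0 or 1 returned identical medians in all 8 comparisons. All 6 regions were already islands with no value of 0 or 1, so CGIs only and that exclusion could change nothing. CHH subtraction kept the medians within 1.5 times. Setting 200 like CGIs gave 15 of 48 differences outside the quartiles in place of 16. Sycp1 in pESC minus female ESC and Mei4 in pESC-PGCLC minus ESC-PGCLC then fell between the quartiles, and Mei4 in ESC-PGCLC minus PGC fell below. With the shift of the CGI class taken out as 1 factor, the median was -0.604 points for pESC minus female ESC, 0.865 for ESC-PGCLC minus PGC, -2.30 for pESC-PGCLC minus PGC, -2.35 for PGC minus female ESC, -0.0850 for PGC minus pESC and, reversed, 0.165 for ESC-PGCLC minus female ESC; 6 of 48 single differences changed sign. With the region nearest the start site, which adds Stag3, it was -0.140 for ESC-PGCLC minus female ESC, -1.73 for pESC-PGCLC minus pESC and -2.33 for PGC minus female ESC. Shores in place of islands covered 5 genes, without Mei4, and the Smc1b shores were averaged. With them it was -7.64, 12.46, 3.84 (reversed), -6.64, -6.48, -1.10, -12.0 and -6.02 points, in the order pESC minus female ESC, ESC-PGCLC minus PGC, pESC-PGCLC minus PGC, pESC-PGCLC minus ESC-PGCLC, ESC-PGCLC minus female ESC, pESC-PGCLC minus pESC, PGC minus female ESC and PGC minus pESC. At 25 points 0 genes differed in any comparison, and at 5 points 2, 2, 0, 3, 2, 1, 3 and 2 did, in that order. The share of all CGIs past 25 or 5 points was not taken, so these counts have no background beside them. The cause of these shifts was not tested. Unknown depth limits every value, and no library could be left out of a group of 1.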
